A study of Bos taurus with 8 samples.

Results

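The miR-126 hairpin is represented in the rumen fluid libraries by 2 entries, bta-miR-126-3p and bta-miR-126-5p, taken by their names from the read tables of the 8 libraries. They were 2 of the 377 miRNA entries that reached 10 reads in at least 1 library, and of the 565 entries listed in all. Small RNA was sequenced from the rumen fluid of 4 non-lactating, ruminally cannulated Holstein cows, once on a forage diet with 0% concentrate and once on the first day of a high-grain (HG) diet with 65% concentrate, after a step-wise adaptation. Each diet is represented by 4 libraries, and libraries with the same number in the labels were taken as 1 cow. Rumen fluid came from the ventral sac, and it can hold RNA of host cells, saliva, feed and microbes, so that its miRNAs come from no single cell type.

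A miRNA gene is transcribed as a hairpin, from which both arms can be cut out as mature miRNAs, named 5p and 3p for their side of the stem. Usually one arm is loaded into an Argonaute protein more often and outlasts its partner. MiR-126 is the best-known miRNA of endothelial cells, the cells that line blood and lymph vessels, and it is also carried by platelets and blood progenitor cells. Its 3p arm is known to repress SPRED1 and PIK3R2, which restrain signalling downstream of vascular endothelial growth factor, and also VCAM1, an adhesion molecule for leukocytes. Its 5p arm is known to repress DLK1, an inhibitor of Notch signalling, in endothelium. The hairpin is known to sit in an intron of EGFL7, which encodes a protein secreted by endothelial cells.

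In the authors' tables both arms had 1 locus each, in the hairpin bta-mir-126 on the plus strand of chromosome 11 of the bovine genome UMD3.1. The 5p arm was placed at chr11:104131417-104131437 and the 3p arm at chr11:104131455-104131475. Each arm was therefore annotated with 21 bases, with 17 bases between them. RefSeq places MIR126 inside EGFL7 on ARS-UCD2.0, a later assembly from which only gene names and order were taken, and gives AGPAT2 as the next protein-coding gene. Reads that map to several entries are counted in full at each of them in the read counts and are divided among them in a second, divided count. For both arms these counts were equal in all 8 libraries, so that no read of miR-126 was shared with another entry. This held for 114 of the 377 entries. The tables listed 0 human miR-126 entries.

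The libraries held 1407364 to 4972757 reads, as recovered from the deposited RPM values, of which 300116 to 522804 were miRNA reads. Levels are given as RPM of miRNA reads, that is, scaled to 1000000 miRNA reads in each library, with 95% Wilson intervals for single libraries, which cover counting error only because amplified reads are not independent molecules. HG replicate 2 stood apart from the other libraries. Of the 353 entries with reads in all libraries, 273 lay outside the range of the other 7 libraries in HG replicate 2 (93 above and 180 below), against 40 to 72 in each of the others. Diet comparisons that rest on HG replicate 2 are therefore given with it and without it, in the paired fits by leaving out both libraries of replicate 2.

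Both arms were detected in every library, at levels that were alike in 7 libraries and higher in HG replicate 2. On the forage diet, bta-miR-126-3p had 2128, 2339, 2028 and 1404 reads in replicates 1 to 4, which was 4306, 4474, 4447 and 4231 RPM of miRNA reads. On the HG diet it had 1353, 2203, 1637 and 1838 reads, or 4508, 6554, 4189 and 4736 RPM. Among the 7 libraries other than HG replicate 2, the highest level was 1.13-fold the lowest, and the diets overlapped. The interval of HG replicate 2, 6286 to 6832 RPM, lay above those of all other libraries, of which the highest ended at 4957.

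The 5p arm showed the same picture at a lower level. Bta-miR-126-5p had 362, 358, 308 and 246 reads in forage replicates 1 to 4, or 733, 685, 675 and 741 RPM of miRNA reads. In the HG libraries it had 212, 376, 283 and 291 reads, or 706, 1119, 724 and 749.8 RPM. The highest of the 7 libraries other than HG replicate 2 was 1.11-fold the lowest, and the diets overlapped here too. In HG replicate 2 the interval of the 5p arm, 1011 to 1237 RPM, again lay above all others, which ended at 841 or lower.

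**Figure D1:**
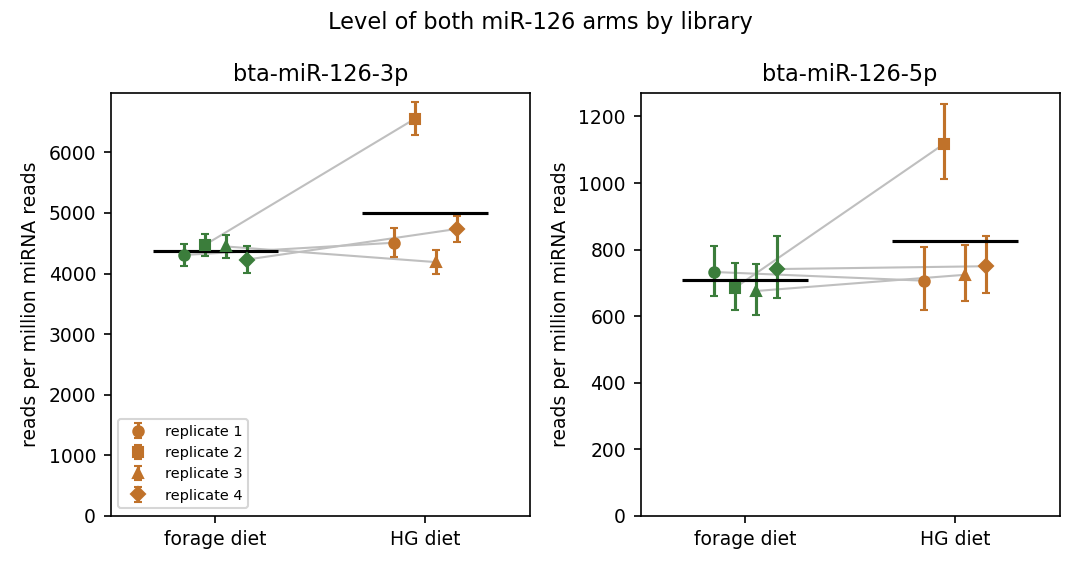
Level of bta-miR-126-3p (left) and bta-miR-126-5p (right) in RPM of miRNA reads, by diet. Each point is 1 library with its 95% Wilson interval, grey lines join libraries of the same number, and black bars are means of 4 libraries. HG replicate 2 (square) reached 6554 RPM for the 3p arm and 1119 RPM for the 5p arm, above the other 7 libraries in both panels.

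Over the 8 libraries, bta-miR-126-3p collected 14930 reads and ranked 40 among the 268 bovine entries, between bta-miR-378 (14931 reads) and bta-miR-23b-3p (14680). These neighbours differed from it by less than its spread between libraries, and its rank in single libraries was 33 to 41. Bta-miR-126-5p collected 2436 reads and ranked 101, between bta-miR-7 (2444) and bta-miR-28 (2338), with ranks of 86 to 103 in single libraries. The 3p arm took 0.464% of all miRNA reads and the 5p arm 0.0757%. Bta-miR-451 of red blood cells had 35.7-fold the reads of the 3p arm, bta-miR-21-5p 26.3-fold, and bta-miR-143, which is abundant in smooth muscle, 13.4-fold. The first 2 of these share reads with other entries and bta-miR-143 does not. Ranked by divided counts, which lower the entries that share reads, the 3p arm came to rank 28 and the 5p arm to rank 83.

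Relative to all reads of a library rather than its miRNA reads, the levels varied more. On this scale, RPM of all reads, the 3p arm ranged from 282 to 1262 in the forage libraries and from 407 to 1163 in the HG libraries, and the 5p arm from 49.5 to 215 and from 64.4 to 201. The miRNA reads made up 6.67% to 29.3% of all reads, and the library with the highest share on each diet, forage replicate 1 and HG replicate 3, was also the highest in both arms on this scale. HG replicate 2 was not apart on this scale, with 565 RPM of all reads for the 3p arm and 96.5 for the 5p arm. The means on this scale were lower on the HG diet for both arms, at 763 (forage) and 643 (HG) for 3p and 123 and 108 for 5p, the opposite direction to RPM of miRNA reads. By cow, both arms were lower on the HG diet in replicates 1 and 2 and higher in replicates 3 and 4.

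The comparison of the diets asks whether the miRNAs of rumen fluid changed in the same cows with the shift to grain. Neither arm passed the test. In edgeR's quasi-likelihood test with cow and diet in the model and Benjamini-Hochberg adjustment over 377 entries, bta-miR-126-3p had a log2 fold change (HG over forage) of 0.22 (standard error 0.14) with an adjusted p of 0.788. Its 95% interval ran from −0.12 to 0.57, or from 0.918-fold to 1.49-fold. Bta-miR-126-5p had a log2 fold change of 0.25 (standard error 0.18) with the same edgeR adjusted p of 0.788 and an interval of −0.19 to 0.68, or 0.878-fold to 1.61-fold. Of the 377 entries, 0 (0%) passed an adjusted p of 0.05, and 9 (2.39%) had an unadjusted p under 0.05, neither arm among them. With DESeq2, 0 entries passed and 3 had an unadjusted p under 0.05. Without both libraries of replicate 2, edgeR called 2 of 361 entries, neither of them an arm of miR-126, and 17 (4.71%) had an unadjusted p under 0.05.

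The mean levels of both arms on the HG diet rested on HG replicate 2. The 3p arm averaged 4364 ± 116 RPM of miRNA reads (SD, n = 4) in the forage libraries. In the HG libraries it averaged 4997 ± 1062 (SD, n = 4), or 4478 ± 275 (SD, n = 3) without HG replicate 2. The 5p arm averaged 708 ± 33.2 (SD, n = 4) with forage and 825 ± 197 (SD, n = 4) with HG, or 727 ± 21.8 (SD, n = 3) without that library. With both libraries of replicate 2 left out, the log2 fold change was 0.04 (standard error 0.05) for the 3p arm and 0.02 (standard error 0.07) for the 5p arm, with edgeR adjusted p of 0.881 and 0.981. The intervals then narrowed to 0.959-fold to 1.11-fold and 0.915-fold to 1.13-fold.

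Within cows, the direction was mixed. On the log2 scale of RPM of miRNA reads, the 3p arm differed between diets (HG minus forage) by 0.07, 0.55, −0.09 and 0.16 in replicates 1 to 4, and was higher on the HG diet in 3 of 4 cows. The 5p arm differed by −0.05, 0.71, 0.10 and 0.02, and was also higher in 3 of 4 cows, though the cow in which it was lower was another one. Outside replicate 2 these differences lay between −0.09 and 0.16.

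The balance of the arms varied little, also in HG replicate 2. The 3p arm made up 86.0% of the reads of both arms (95% Wilson interval 85.4% to 86.5%), or 6.13 reads of 3p for each read of 5p. In forage replicates 1 to 4 the share of 3p was 85.5%, 86.7%, 86.8% and 85.1%, and in HG replicates 1 to 4 it was 86.5%, 85.4%, 85.3% and 86.3%. All 8 intervals overlapped, since the lowest upper bound was 86.7% and the highest lower bound 85.4%. HG replicate 2, in which both arms were highest, lay inside the range of the other libraries.

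**Figure D2:**
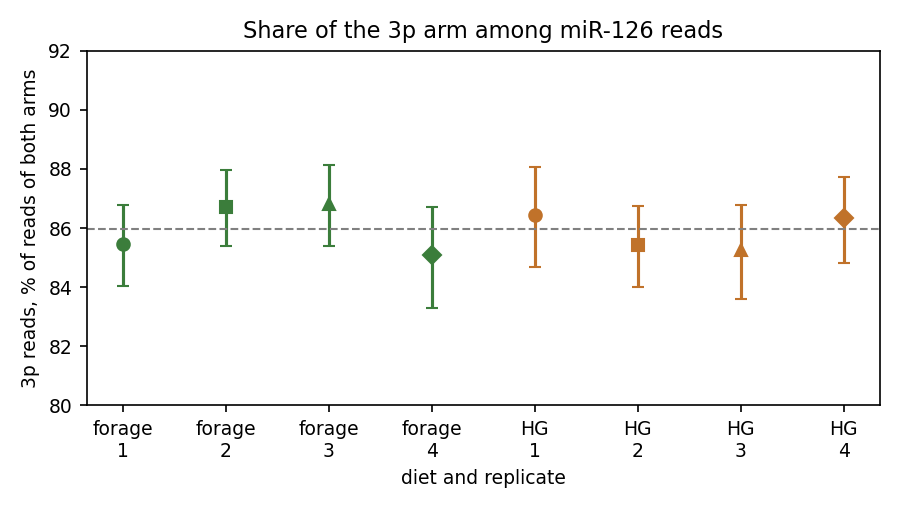
Share of 3p reads among the reads of both miR-126 arms, in percent, for the 8 libraries, with 95% Wilson intervals. The dashed line is the share over all libraries, 86.0%. All intervals overlap, and HG replicate 2 lies at 85.4%.

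As a ratio of reads, 3p to 5p averaged 6.18 ± 0.448 (SD, n = 4) with forage, close to the 6.09 ± 0.307 (SD, n = 4) with HG. The mean log2 ratio was 2.62 on the forage diet and 2.60 on the HG diet, a difference (HG minus forage) of −0.02 with a standard error of 0.09 over 4 cows (exact sign-flip permutation test, two-sided, p = 0.75). With 4 pairs there are 16 assignments of signs, so the smallest p of this test is 2 in 16, above the 0.05 threshold. The ratio was higher on the HG diet in 2 of 4 cows, and its direction reversed without replicate 2 (0.03) and without replicate 3 (0.04). The log2 ratio had an SD of 0.08 over the 8 libraries, while counting error alone would give a library an SD of 0.09 (median over libraries).

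For comparison, 16 bovine hairpins had entries named 3p and 5p with at least 100 reads each. MiR-126 had the third highest ratio of 3p to 5p among them. MiR-22 (59.6) and miR-199a (9.47) were above it, and miR-296 (1.99) was next below. Reads of 3p were in the majority for 7 hairpins and reads of 5p for 9, with let-7a at the other end, at 0.00687. Only 6 of the 16, miR-126 among them, shared no reads with another entry, so that the ratios of the others can hold reads of related hairpins. The log2 ratio of miR-126 had the third smallest SD over libraries, 0.08, after miR-423 (0.04) and miR-151 (0.08), in a range up to 1.56 with a median of 0.36. This order is over all 8 libraries and was not taken without HG replicate 2. Without that library miR-126 had an SD of 0.09. These 3 hairpins had 2436 (miR-126), 4798 (miR-423) and 6082 (miR-151) reads in their lesser arm. They were among the 4 hairpins with the most reads in the lesser arm, the other being miR-142 (3401 reads, SD 0.25). The log2 ratio of miR-142 was −2.78 in HG replicate 2, against −3.53 to −3.32 in the other libraries. The largest SDs belonged to hairpins with few such reads, miR-362 (147 reads, SD 1.56), miR-7857 (151 reads, SD 1.13) and miR-193a (277 reads, SD 0.83). In HG replicate 2 the log2 ratio of miR-362 was 3.22, against −1.83 to −0.56 in the other libraries. For miR-7857 it was −2.35 against −0.36 to 1.04, and for miR-193a 1.76 against −1.01 to 0.60. MiR-296, with the fewest such reads (108), had an SD of 0.55. The parts of read number and of HG replicate 2 in these SDs were not tested.

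**Figure D3:**
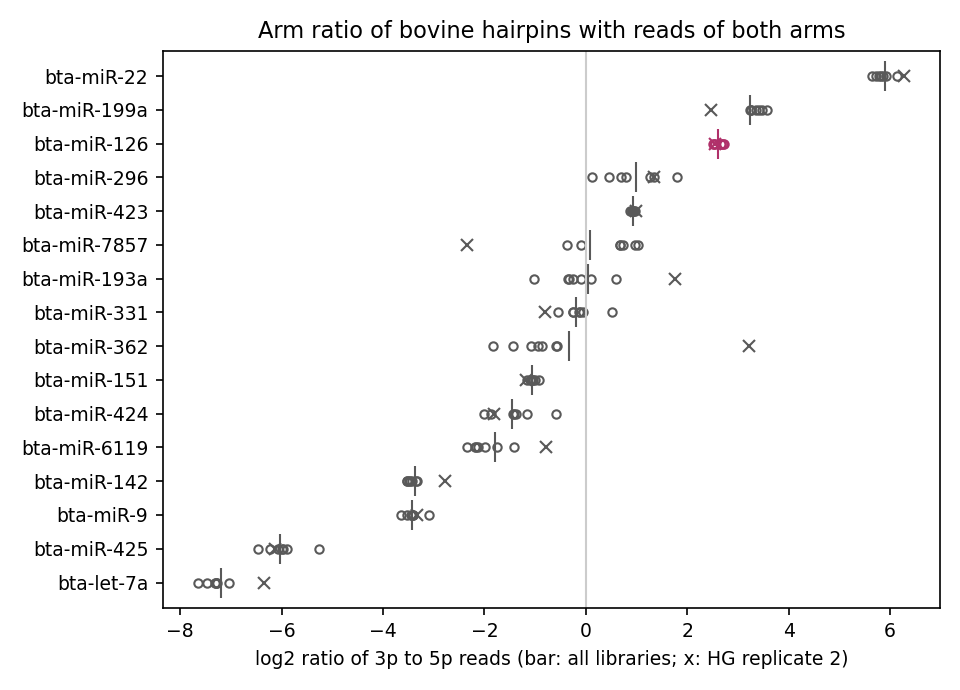
Log2 ratio of 3p to 5p reads for the 16 bovine hairpins with at least 100 reads of each arm, ordered by the ratio over all libraries (bar). Circles are 7 single libraries and crosses HG replicate 2, after 0.5 reads were added to each arm. MiR-126 (magenta) lies below miR-22 and miR-199a, with all 8 libraries close together.

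In HG replicate 2 the arms of miR-126 moved together. Against the median of the other 7 libraries, the 3p arm was 1.47-fold higher (log2 0.56) and the 5p arm 1.54-fold higher (log2 0.63). The gap between the arms, 0.07 on the log2 scale, was the smallest of the 16 hairpins, whose median was 0.58. It was close to the gaps of miR-423 (0.09), miR-425 (0.10), miR-9 (0.10) and miR-151 (0.11). Counting error alone gave the log2 ratio of miR-126 in that library an SD of 0.08, so its place before these hairpins was not resolved. Both arms were higher in that library for 4 of the 16 hairpins, both lower for 4, and opposite for 8. In order of this log2 value from the highest, the 5p arm was 39 and the 3p arm 47 of 353 entries, whose median was −0.23.

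The tables also give the number of distinct read sequences behind each entry, which counts trimmed and extended forms of a miRNA as well as sequencing errors. The 3p arm had 46, 46, 33 and 31 distinct sequences in forage replicates 1 to 4 and 34, 30, 41 and 38 in HG replicates 1 to 4. HG replicate 2 thus had the fewest, although only forage replicate 2 had more reads of this arm. That library also had the fewest distinct sequences in 80 of 130 bovine entries with at least 800 reads (61.5%). The 5p arm had 13, 14, 13 and 12 distinct sequences on the forage diet and 11, 10, 10 and 11 on the HG diet. Its diets therefore did not overlap, as for 10 of 250 bovine entries with reads in all libraries (4%), while 0 had more in every HG library. Summed over all bovine entries, distinct sequences numbered 5798, 5914, 5522 and 4659 in forage replicates 1 to 4 and 4386, 4147, 5120 and 5161 in HG replicates 1 to 4, and miRNA reads were 331864 to 522804 on the forage diet and 300116 to 390774 on the HG diet. For the 5p arm itself, HG replicate 2 had the most reads of this arm (376) and, with HG replicate 3, the fewest distinct sequences, while forage replicate 4 had 246 reads and 12 distinct sequences. The part of read number in the difference between diets was not tested.

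MiRNAs of other cell types moved in HG replicate 2 in both directions. The summed level of the 3 erythrocyte miRNAs (miR-451, miR-144 and miR-486, all detected) was 202018 to 206066 RPM of miRNA reads on the forage diet, 198457 to 201656 in the other HG libraries and 149756 in HG replicate 2. The 7 leukocyte and platelet miRNAs, all detected, summed to 32938 to 33148 RPM on the forage diet, 32448 to 33188 in the other HG libraries and 26265 in HG replicate 2, although 2 of them, miR-142-3p and miR-146a, were higher there than in any other library. Of the 8 epithelial miRNAs 7 were detected, all except miR-203, and their sum was 22355 to 22637 RPM on the forage diet, 22054 to 22804 in the other HG libraries and 31200 in HG replicate 2. There 5 of the 7 were above the range of the other libraries, while miR-200c was within it and miR-200b below it (1892 RPM against 2006 to 2189). The 5 miRNAs of stroma and smooth muscle, all detected, summed to 64939 to 67712 RPM on the forage diet, 65089 to 69990 in the other HG libraries and 89700.2 in HG replicate 2. Of the last sum miR-143 made up 80582 RPM, miR-145 and miR-199a-5p were also above the range of the other libraries, and miR-199a-3p and miR-214 were within it.

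MiR-126 thus went up beside the epithelial list (1.39-fold the median of the other 7 libraries) and the stromal list (1.35-fold), and opposite to the erythrocyte list (0.741-fold) and the list of leukocytes and platelets (0.797-fold). Relative to the 3p arm, the summed erythrocyte miRNAs were 46.1-fold in the median of the 7 libraries and 22.9-fold in HG replicate 2, while the summed epithelial miRNAs were 5.09-fold and 4.76-fold. The part of these cell types in the level of miR-126 was not tested, and a change in the number of cells of a type cannot be told apart from a change in RNA per cell. In the diet test with edgeR, 0 members of these 4 lists passed an adjusted p of 0.05, and 0 had an unadjusted p under 0.05, against 0 (0%) and 9 (2.39%) of all 377 entries. Their median log2 fold changes were −0.08 (erythrocytes), −0.04 (leukocytes and platelets), 0.16 (epithelium) and 0.17 (stroma and smooth muscle), against 0.03 over all 377 entries. Without both libraries of replicate 2, the medians were −0.00496, −0.00920, −0.02 and 0.01 in the same order, against 0.00465 over the 361 entries then tested.

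**Figure D4:**
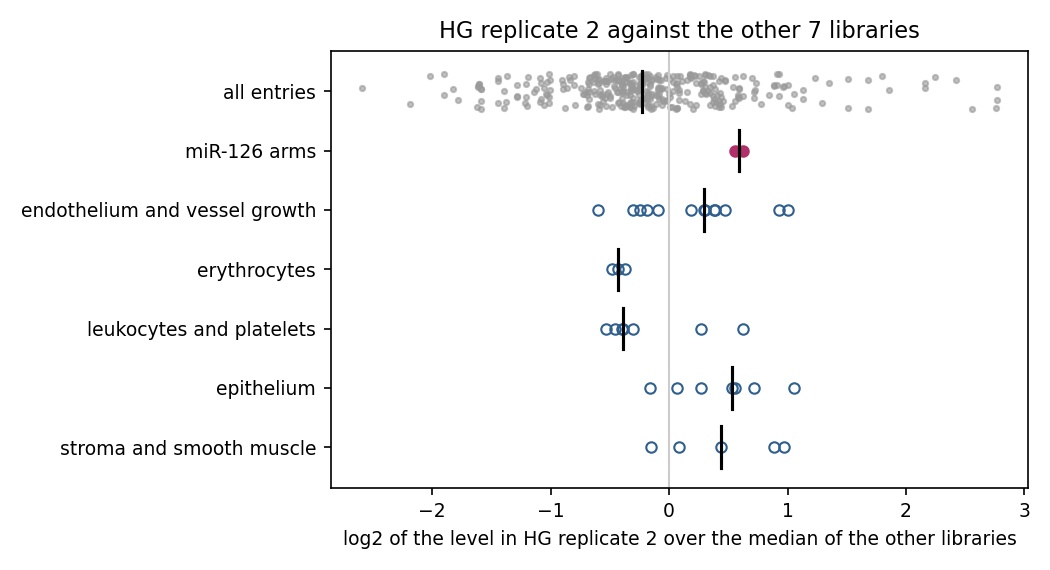
Log2 of the level in HG replicate 2 over the median of the other 7 libraries, for 353 entries with reads in all libraries, the miR-126 arms and 5 lists of miRNAs. Each point is 1 entry and black bars are medians. The arms lie at 0.56 and 0.63, the median of all entries at −0.23.

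A list of 13 other miRNAs that are studied in endothelium and vessel growth was set beside miR-126, and all 13 were detected. By reads they were led by bta-miR-92a, a member of the miR-17-92 cluster that restrains vessel growth (74618 reads), bta-miR-221, which acts on the receptor KIT in endothelium (5977), and bta-miR-10b (4788). Many of these miRNAs are also expressed outside endothelium. In the diet test 0 of 13 passed, with 0 at an unadjusted p under 0.05, against 0 (0%) and 9 (2.39%) of all 377 entries, and 6 of 13 had a positive log2 fold change, against 210 of 377. The median was 0.00 and the range −0.20 (bta-miR-18a) to 0.51 (bta-miR-210, a miRNA induced by hypoxia). Bta-miR-92a had a log2 fold change of −0.01 (standard error 0.03), bta-miR-221 of 0.17 (standard error 0.11) and bta-miR-10b of 0.17 (standard error 0.14). Without both libraries of replicate 2, the values were −0.02 (standard error 0.02), 0.04 (standard error 0.04) and −0.00344 (standard error 0.05), and bta-miR-210 stood at 0.27 (standard error 0.21).

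These miRNAs did not move as one in HG replicate 2. Their sum was 30212 RPM there, against 31429 to 32247 on the forage diet and 31165 to 32014 in the other HG libraries, and 7 were above and 3 below the range of the other 7 libraries. Bta-miR-92a alone made up 20589 RPM of the sum in HG replicate 2, so the sum largely follows that entry. Bta-miR-221, at 2353 RPM against 1721 to 1842 in the other 7 libraries, and bta-miR-10b, at 1877 against 1352 to 1561, were high with miR-126. Bta-miR-92a was low, at 20589 against 22919 to 23773. Bta-miR-222, which comes from the same cluster as bta-miR-221, was also low, at 768 against 937 to 1063.

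The profile of each arm was compared with those of 129 other bovine entries with at least 800 reads, by the root mean square difference of log2 levels after each entry was centred on its mean over the 8 libraries. The entries most like bta-miR-126-3p were bta-miR-27b (0.050), bta-miR-143 (0.053), bta-miR-27a-3p (0.054), bta-miR-205 (0.066) and bta-miR-23b-3p (0.073), and the 5p arm came next (0.079). For bta-miR-126-5p they were bta-miR-27b (0.053), bta-miR-200a (0.058), bta-miR-205 (0.072), bta-miR-126-3p (0.079) and bta-miR-23b-3p (0.085). All of these were higher in HG replicate 2, by 0.43 to 0.63 on the log2 scale. Without that library, 2 of the 5 remained among the 5 nearest to the 3p arm, bta-miR-143 (0.026) and bta-miR-27a-3p (0.029), and 0 of the 5 nearest to the 5p arm. The other arm then came 68 in order of likeness to the 3p arm and 73 to the 5p arm.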

How the data were processed

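Small RNA was sequenced in 8 libraries of rumen fluid, 4 per diet. Reads were demultiplexed with bcl2fastq 2.20, trimmed with Skewer, filtered at a mean quality of 20 and a length of 15 nucleotides, and assigned by the authors with sRNAbench and Bowtie (2 mismatches) to UMD3.1 and to miRBase 22. The deposited tables give the read count per mature entry, the count of distinct sequences, an expected count (a read divided by the number of its entries), RPM of all reads and a score, RPM of miRNA reads. From the deposited RPM and score the totals were recovered. The authors' normalized table was not used, since it derives from the same counts. Papillae libraries were not analysed here.

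Read counts of the 377 entries that reached 10 reads in any library were tested with edgeR 4.0.16 (TMM, glmQLFit, glmQLFTest, two-sided) in R 4.3.3. The model held cow and diet, the terms of the study's own model. DESeq2 1.42.0 was an alternative. Divided counts were rounded for the fit. Arm ratios were compared with an exact sign-flip permutation test in Python 3.11.15 (numpy 2.4.6, pandas 2.3.3, scipy 1.17.1). The fit was also run on simulated counts. These had no differences between cows and no library set apart, so they do not check the fit on data like these. The pairing rests on the labels and on the sampling of the same cows on both diets, and the correlations of same-numbered deviations from the diet means were −0.06 to 0.06, against −0.16 to 0.21 for other pairs.

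Both arms were described in full. Among other miRNAs, those named were the 5 nearest profiles of each arm, the 3 endothelial miRNAs of most reads, neighbours in rank and arm ratio, and bta-miR-451, bta-miR-21-5p and bta-miR-143. MiR-423, miR-425, miR-9, miR-151, miR-142, miR-362, miR-7857, miR-193a, let-7a, bta-miR-18a, bta-miR-210, bta-miR-222, the members named of the lists of other cell types and the 2 miR-2285 entries were added to these once their values had been seen. The members and lists were chosen with earlier results of these data known. The numbers of distinct sequences, of entries outside the range of the other libraries and of arms moving together in HG replicate 2 were added after the data had been seen. Alternatives were another tool, size factors, filters, read assignment, left-out human duplicates, no cow block and left-out replicates.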

Additional observations from a re-analysis of the deposited data

Results flagged for a closer look

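Groups of 4 libraries were searched for a library far from the other 3, by the gap to its nearest neighbour as a share of the whole range, against Dixon's 95% critical value for 4 values. This was done for 24 groups of values, of which 4 passed. Chance passes about 1 in 20 independent groups, but these groups share libraries and reads, so their count cannot be set against it. All 4 passes lay in HG replicate 2. Bta-miR-126-5p was highest there, at 1119 RPM of miRNA reads, with a gap of 0.895 of the range of the HG libraries. Bta-miR-126-3p, at 6554 RPM, had a gap of 0.769, under the critical value. The summed level was lowest in that library for the erythrocyte miRNAs (149756 RPM, gap 0.938) and for those of leukocytes and platelets (26265 RPM, gap 0.893), and highest for the epithelial miRNAs (31200 RPM, gap 0.918). The sum of stroma and smooth muscle was also highest there, with a gap of 0.801, under the critical value.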

How the results depend on the processing

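The diet change of both arms kept its positive direction and did not pass the test in any of 11 alternatives, with log2 fold changes of 0.03 to 0.33 for bta-miR-126-3p and 0.02 to 0.34 for bta-miR-126-5p, and adjusted p from 0.678 to 0.999 (edgeR or DESeq2). Both lowest values came from fits that left out HG replicate 2. Without the replicate block the changes were 0.26 and 0.29, and the block changed no call. Leaving out 1 replicate in turn gave 0.04 to 0.33 for the 3p arm, 0.02 to 0.34 for the 5p arm, and 0 to 2 entries called, the 2 being bta-miR-2285ak-5p and bta-miR-2285bh without replicate 2 (edgeR adjusted p = 0.0281). Those calls rest on 88 reads of forage replicate 1 that both entries share, with 0 reads in the other libraries. Entries with an unadjusted p under 0.05 numbered 3 (DESeq2) to 17 (without replicate 2) over these settings, with 4 without replicate 1 and 16 without HG replicate 2 and the block, against 9. The difference in the log2 arm ratio was −0.0752 to 0.0359 with 1 replicate left out, with the reversed values 0.026 without replicate 2 and 0.0359 without replicate 3. Without the pairing its exact permutation p was 0.629. Mean levels without 1 replicate were 4328 to 4409 RPM (forage) and 4478 to 5266 RPM (HG) for the 3p arm, and 698 to 719.5 and 727 to 864 for the 5p arm. On other scales the 3p arm averaged 763 (forage) and 643 (HG) RPM of all reads, or 2832 and 3402 TMM-normalized CPM. The 5p arm averaged 123 and 108 RPM of all reads, or 460 and 562 CPM. The direction of the means between diets thus turned on the scale of all reads. On that scale both arms were lower on the HG diet in replicates 1 and 2 only. By divided counts the arms ranked 28 and 83, and among bovine and human entries together 60 and 139. With hairpins of at least 10 reads in 1 library, miR-126 came 4 of 22 by arm ratio. Without HG replicate 2, the 5 most alike entries kept 2 members for the 3p arm and 0 for the 5p arm. The cause of these shifts was not tested. Depth limits the 5p arm more than the 3p arm, with 212 to 376 reads a library against 1353 to 2339.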
